A study of Homo sapiens with 4 samples.

Results

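The NRSF/REST binding sites described here were called at the basal SF-1 dosage and did not share a single base with any site called at the increased SF-1 dosage. They are 1892 of the 5323 sites of the basal list (35.5%), out of 10382 sites in the lists of both dosages. They are called basal-only sites below; the other 3431 sites of the basal list, which overlap an increased-dosage site by at least 1 bp, are called shared sites. The sites were chosen by the overlap of the called sites of the lists, so the 35.5% is a description of the choice and was not tested. In the other direction, 1623 of the 5059 increased-dosage sites (32.1%) overlapped no site of the basal list, and these increased-only sites are given beside the basal-only sites throughout.

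NRSF/REST was immunoprecipitated from H295R/TR SF-1 cells, a clone of the human adrenocortical tumor cell line H295R in which doxycycline switches on additional SF-1, the nuclear receptor that drives steroid hormone production. The basal dosage is 1 library from cells without doxycycline, and the increased dosage is 1 library from cells of the same clone after 3 days of doxycycline. Both libraries were made with the same anti NRSF/REST antibody, and 2 input DNA libraries are listed but were not analysed here. With 1 library per dosage, no replicate shows whether a site missing from a list was absent in the cells or fell below the calling threshold, and SF-1 itself cannot be told apart from doxycycline or from the library. Read counts are not part of the lists, so the depth behind each site is unknown, and all intervals given below are 95% intervals that cover counting error over sites only.

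NRSF/REST is a zinc finger repressor that silences neuronal genes in cells outside the nervous system. It binds a long DNA element, called RE1, made of a left and a right part at a fixed spacing, and recruits corepressors with histone deacetylase and demethylase activity. In endocrine cells its known targets include ion channels, synaptic vesicle proteins and secretory granule proteins.

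The element searched for was the pair of parts CTGTCC and GGTGCTG with 2 bases between them, on either strand, with at most 2 mismatches over the 13 fixed bases. In all, 143 basal-only sites held it, of which 7 matched every fixed base and 50 had 1 mismatch. The 7 full matches are printed here because they are the basal-only sites whose sequence is closest to the element; capitals mark bases equal to the consensus, and each line runs 5′ to 3′ on the strand of the match (hg19).
Upstream of ESRRG, chr1:217367073-217367093, minus strand: gtcaCTGTCCttGGTGCTGgg
Intron of ALG12, chr22:50309398-50309418, minus strand: gcctCTGTCCttGGTGCTGag
Intron of NAALADL2, chr3:174544050-174544070, minus strand: ccacCTGTCCtaGGTGCTGaa
Upstream of SNCAIP, chr5:121600527-121600547, plus strand: ggctCTGTCCcaGGTGCTGtc
Downstream of GET4, chr7:936357-936377, plus strand: gaccCTGTCCtaGGTGCTGac
Intron of PLGRKT, chr9:5397734-5397754, plus strand: gcagCTGTCCcaGGTGCTGcc
Intron of ACAA1, chr3:38168194-38168214, minus strand: ctggCTGTCCatGGTGCTGgc

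Site boundaries lie on a grid of 50 bp with the last base left out, and widths are given as the whole steps of the grid (100, 150, 200 bp and so on), 1 bp more than the span of the coordinates. The 7 sites were between 100 bp (ACAA1) and 300 bp (ESRRG) wide. ESRRG encodes an orphan nuclear receptor, ALG12 a mannosyltransferase of the endoplasmic reticulum, SNCAIP a partner of alpha-synuclein, GET4 a factor for the insertion of tail-anchored membrane proteins, PLGRKT a plasminogen receptor and ACAA1 a peroxisomal thiolase. The site near ESRRG lay 56.0 kb upstream of the gene, the site near SNCAIP 46.5 kb upstream, and the site near GET4 0.327 kb downstream. In the PLGRKT site 62.7% of the 32-base words occur more than once in the genome, whereas the other 6 sites held no repeated word. The nearest site of the increased list was 60601 bases away from the NAALADL2 site and 789551 bases away from the PLGRKT site, the shortest and the longest of the 7 distances.

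Next are the matches with 1 or 2 mismatches at basal-only sites that are taken up again below, in ion channel, receptor and neural transcription factor genes and beside increased-dosage sites. A substitution gives the consensus base, its position and the base of the site, with position 1 at the consensus's first C.
Intron of GRM7, chr3:7770688-7770708, minus strand, T14A: gttgCTGTCCaaGGTGCaGag
Intron of MYT1, chr20:62798315-62798335, plus strand, G3C: ggcgCTcTCCctGGTGCTGct
Intron of DYRK1A, chr21:38835961-38835981, plus strand, C5T: ggcaCTGTtCttGGTGCTGat
Intron of RNF216, chr7:5721171-5721191, minus strand, G15A: gacaCTGTCCttGGTGCTaca
Intron of CACNA2D2, chr3:50497404-50497424, minus strand, T2A and C5T: gggaCaGTtCctGGTGCTGaa

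Most basal-only sites held nothing so close. The best matches of 3 of them are shown with 4 or 5 mismatches, together with the shared site next to the CACNA1B site, which matched every fixed base.
Intron of CPLX2, chr5:175238764-175238784, minus strand: agtgCTGaCtatGGccCTGgt
Intron of KCNJ5, chr11:128763703-128763723, plus strand: atggCTtcCCtgGagtCTGct
Intron of CACNA1B, chr9:140777996-140778016, plus strand: cccaCccTCCagGGTGtTaac
Shared site next to it, also intronic in CACNA1B, chr9:140779188-140779208, plus strand: ggcgCTGTCCatGGTGCTGag

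Basal-only sites were narrow and stood late in the list. Basal-only sites had a median width of 150 bp (quartiles 100 and 200 bp, widest 650 bp), against 450 bp for shared sites (quartiles 300 and 650 bp, widest 2450 bp). Of the basal-only sites, 1248 (66.0%) were 100 or 150 bp wide, compared with 153 of the shared sites (4.46%), and 22 (1.16%) were wider than 350 bp, compared with 2226 (64.9%). Increased-only sites had the same median of 150 bp, and 72.0% of them were 100 or 150 bp wide. By the second deposited score, which runs from 1 to the number of sites and was taken as the order of the list, the first basal-only site stood at number 1999 and their median was 4304, against a median of 1716 for shared sites, and 32 basal-only sites fell in the first 50% of the list. No value of binding strength can be set beside this, because the deposited score is 1000 for every site.

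The share of basal sites that were basal-only fell in steps with width. It was 92.4% at 100 bp (619 of 670, interval 90.1 to 94.2%), 86.0% at 150 bp, 62.9% at 200 bp, 36.6% at 250 bp, 21.7% at 300 bp and 3.44% between 350 and 550 bp. Above 550 bp, 1 of 1162 sites was basal-only (0.0861%, 0.0152 to 0.486%). Since shared and basal-only sites differ this much in width, the main comparisons between them below are also given among sites of like width. The class of up to 200 bp, used for many of them, is not an even match. Of its 1605 basal-only sites 1248 were 100 or 150 bp wide, and of its 364 shared sites 153. Its shared sites were thus wider on the whole, and differences within it can still carry width.

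**Figure D1:**
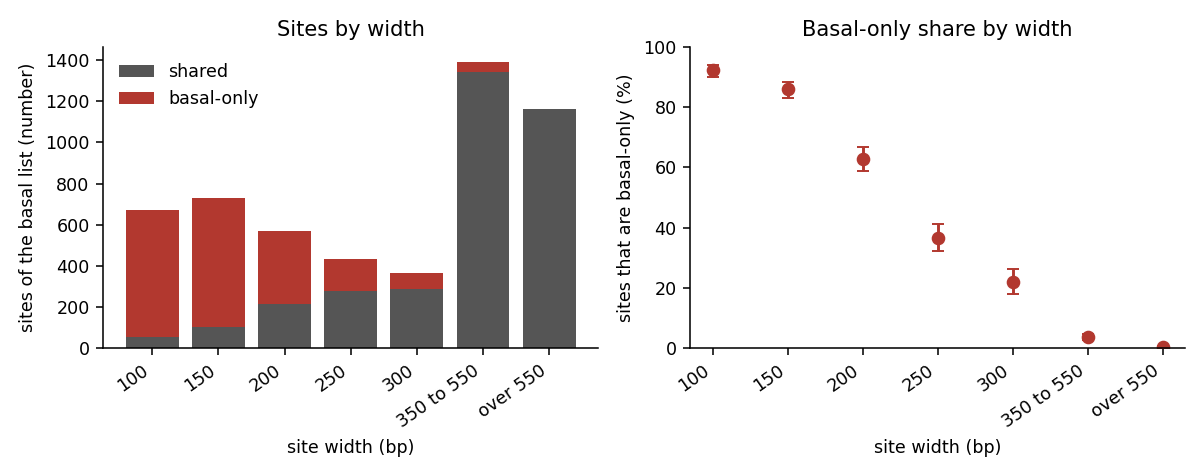
Left, number of sites of the basal list in each class of site width (bp), divided into shared and basal-only sites; right, percent of the sites of each class that are basal-only, with 95% Wilson intervals. The share falls from 92.4% at 100 bp to 0.0861% above 550 bp.

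The 10 widest basal-only sites were between 450 and 650 bp. The widest, 650 bp at chr9:68413351-68413999, lay in the pseudogene DUX4L50, and a pair of 500-bp sites lay at chr16:32817251-32817749 and chr16:33952251-33952749. Of the rest, 5 lay in introns of coding genes, namely COL15A1, which encodes a basement membrane collagen, CACNA1B, the pore subunit of N-type calcium channels, ANKRD30BL, CACNA2D2, an auxiliary calcium channel subunit, and PDE4D, a cAMP phosphodiesterase. The remaining 2 lay downstream of LHX2, a developmental homeobox gene, at 76.3 kb and of GGTLC2 at 63.8 kb. Among the 10, the CACNA2D2 site and the site near GGTLC2 held the RE1 consensus.

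The rule that separates basal-only from shared sites is an overlap of 1 bp, and few sites stood close to it. With 1 base in between, 7 basal-only sites abutted an increased-dosage site, 28 (1.48%) had 101 or fewer bases between, and 133 (7.03%) had 1000 or fewer. On the other side, the smallest overlap of a shared site was 49 bp, found at 12 sites, and the median overlap was 449 bp. Just inside the rule were the sites in introns of DYRK1A, a protein kinase gene on chromosome 21, and RNF216, a ubiquitin ligase gene, and a site 9.85 kb upstream of MLN, the motilin gene. The DYRK1A and RNF216 sites were 250 and 300 bp wide and each held the consensus with 1 mismatch, while the abutting increased-dosage sites were 100 bp wide and had best matches of 6 mismatches. The site near MLN was 250 bp wide with a best match of 3 mismatches, and its increased-dosage neighbor was 300 bp wide with 4. Just outside it, shared sites of 200 bp in LINC02217, 250 bp in an intron of HSP90AA1, a heat shock protein gene, and 250 bp at chr4:1402751-1402999 overlapped their partner by 49 bp.

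In relation to genes, 1163 basal-only sites lay within a gene (61.5%, 59.3 to 63.6%), 1019 of them in introns (53.9% of all basal-only sites) and 144 in exons (7.61%). Shared sites lay within genes at 64.0%, a difference of -2.51 percentage points whose interval includes 0 (-5.23 to 0.201), and in exons at 11.6%, a difference of -4.02 points (-5.59 to -2.37). Increased-only sites were at 62.1% in genes and 7.83% in exons, and neither difference from the basal-only sites lay outside 0 (-0.638 points, -3.85 to 2.59, and -0.214 points, -2.01 to 1.55). Outside genes, 60 basal-only sites (3.17%) lay within 2 kb on the 5′ side of the nearest gene and 36 (1.90%) within 2 kb on its 3′ side. When genes of every type were counted, 69 basal-only sites (3.65%) were farther than 100 kb from any gene.

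Within 1 kb of the start of a protein-coding gene there were 79 basal-only sites (4.18%) and 337 shared sites (9.82%), a difference of -5.65 points (-6.97 to -4.27), and the median distance to such a start was 90.4 kb against 53.2 kb. Farther than 100 kb from any coding gene were 553 basal-only sites (29.2%) and 703 shared sites (20.5%), a difference of 8.74 points (6.30 to 11.2). These differences shrank or turned among sites of like width. For sites up to 200 bp wide, the difference near gene starts was -2.73 points (-5.87 to -0.358), that of sites far from coding genes -0.775 points (-6.15 to 4.28) and that in exons -0.776 points (-4.17 to 1.90). In the same narrow sites, 62.2% of basal-only against 54.1% of shared sites lay within a gene, 8.12 points more (2.53 to 13.8). Within this class the shared sites were still the wider ones on the whole, as given above. Near gene starts, the basal-only shares at 100, 150 and 200 bp were 2.42%, 4.13% and 5.88%. Those of shared sites were 5.88% (3 of 51), 4.90% and 7.58%. At 250 or 300 bp no interval lay outside 0, with differences of 0.0525, -1.27, 0.861 and -0.599 points for gene starts, distance from coding genes, exons and genes.

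Of the 1163 basal-only sites in genes, 859 (73.9%) were in protein-coding genes and 272 (23.4%) in genes of long noncoding RNAs. Among shared sites in genes, 77.1% were in coding genes, and the difference was -3.22 points (-6.34 to -0.186). It was 1.19 points up to 200 bp (-5.26 to 8.34) and 2.97 points at 250 or 300 bp (-6.16 to 11.2). In all, 804 of 20163 coding genes (3.99%) held a basal-only site, and their median length was 150 kb against 27.2 kb for all coding genes. A single basal-only site was found in 712 of these genes, 2 in 73 and 3 or more in 19. Shared sites were also present in 214 of the 804 genes (26.6%) and increased-only sites in 137 (17.0% of these genes, and 18.6% of the genes that held an increased-only site). Over all coding genes, 6.70% held a shared site of the basal list and 3.65% an increased-only site. The 804 genes thus held other sites more often than coding genes at large, and no allowance was made for their greater length. The other 504 genes (62.7%) held no other site of either list within their bodies.

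The genes with the most basal-only sites were long. CNTNAP2, which encodes an adhesion protein of axons and spans 2305 kb, held 5, next to 3 shared and 2 increased-only sites. CDH18, a cadherin gene, GPC5, which encodes a heparan sulfate proteoglycan of the cell surface, and RIMS2, which encodes a scaffold of the presynaptic active zone, held 4 each. Among the genes with 3 were GRIK2, a kainate receptor gene of 1119 kb, GPC6, the neighbor of GPC5 on chromosome 13, and the shorter genes CDH22 (135 kb), ADAMTS20 (198 kb) and ANKRD30BL (110 kb). Per Mb of gene, the values ran from 2.17 in CNTNAP2 to 27.2 in ANKRD30BL, which with CDH22 (22.3) and ADAMTS20 (15.1) stood above RIMS2 (5.31) and CDH18 (3.62). The 450-bp ANKRD30BL site named above held 11.2% repeated words and lay 301 bases from a shared site. Whether repeats raised the values per Mb was not tested.

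The gene classes known for RE1 elements were then examined. In 11 neuronal and neuroendocrine lists with 523 genes, protocadherins included, there were 74 basal-only sites in 55 genes, or 0.827 sites per Mb of gene body, 1.26 times the 0.658 per Mb over all coding genes. For shared sites the same lists held 250 sites, 2.79 per Mb, 2.16 times the 1.30 per Mb over all coding genes. Thus 22.8% of the basal sites in these genes were basal-only, against 35.2% in the remaining coding genes, a difference of -12.4 points (-17.1 to -7.16). Among sites of like width this difference did not lie outside 0: it was -4.02 points at 100 or 150 bp (-15.7 to 3.04), -9.65 points at 200 to 300 bp (-21.8 to 3.88) and 0.589 points above 300 bp (-1.06 to 3.69). Of the 55 genes, 12 held no other site, against 504 of all 804 coding genes with a basal-only site (62.7%). The 55 genes are part of the 804, and no allowance was made for gene length.

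**Figure D2:**
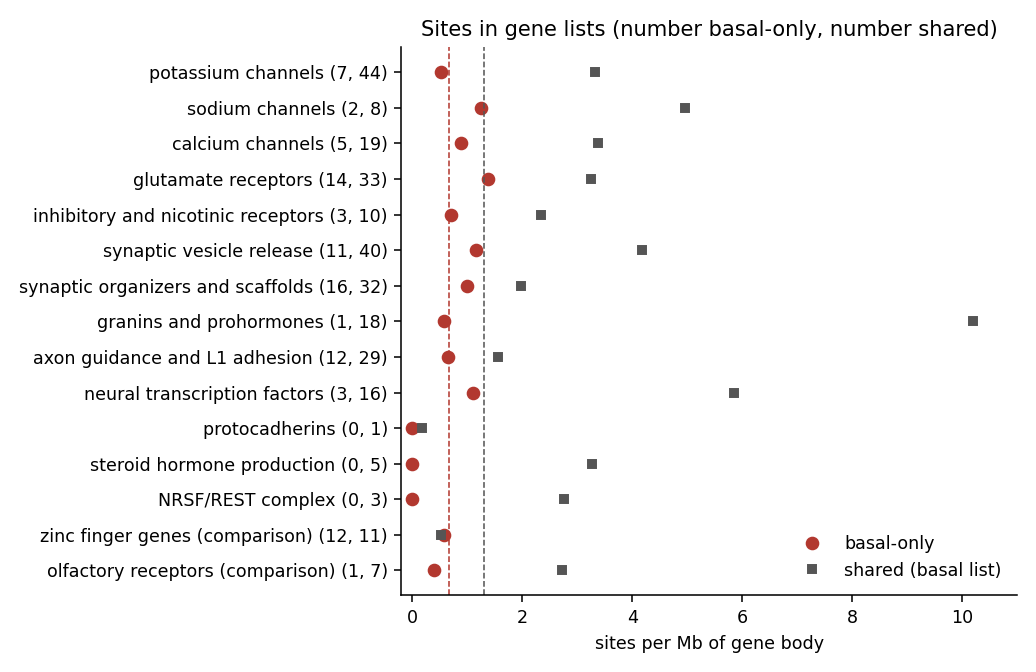
Sites per Mb of gene body (x axis) in each gene list, for basal-only sites (circles) and shared sites (squares), with the number of each in parentheses; dashed lines mark all protein-coding genes, 0.658 per Mb for basal-only and 1.30 for shared sites. Granin and prohormone genes had 10.2 shared and 0.568 basal-only sites per Mb.

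Most basal-list sites in ion channel genes were shared, as were those in all coding genes, where 33.7% were basal-only. In 94 potassium channel genes there were 7 basal-only and 44 shared sites, so that 13.7% were basal-only (6.81 to 25.7%), a difference of -20.4 points from the other coding genes (-27.5 to -8.22). Among sites of up to 300 bp, 7 of 12 were basal-only, -10.8 points with an interval that includes 0 (-37.3 to 11.7), and above 300 bp none of 39 was. KCNU1, a potassium channel gene of sperm, KCNK12, which encodes a background potassium channel, and KCNJ5, the inward rectifier whose mutations are known from aldosterone-producing adenomas, held basal-only sites and no other. KCNU1 held 2, neither wider than 150 bp. The KCNK12 site, 150 bp, lay in a coding exon, 651 bases from a shared site outside the gene. The KCNJ5 site at chr11:128763701-128763799 was 100 bp wide, lay in an intron 383451 bases from the nearest site of the increased list, and its best match, printed above, had 5 mismatches. Sodium channel genes held 2 basal-only sites, 1 each in SCN2A and SCN8A, and calcium channel genes held 5, of which 2 were in CACNA1A, and each of these genes also held shared sites.

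In 26 glutamate receptor genes, 14 basal-only sites were found in 9 genes (34.6%), 1.38 per Mb, and 29.8% of their basal sites were basal-only, a difference of -3.96 points from the other coding genes with an interval that includes 0 (-15.3 to 10.3). GRIK2 and GRM7, a metabotropic receptor gene, held 3 each. GRM7 held no site of another kind, and its widest, 350 bp at chr3:7770501-7770849, had the consensus with 1 mismatch and lay 589101 bases from the nearest shared site. GRIN2D, an NMDA receptor subunit gene, held a 100-bp site with 3 mismatches. Among 39 GABA-A, glycine and nicotinic receptor genes there were 3 basal-only sites, and CHRNA7, a nicotinic receptor gene, held 1 of them and no other site.

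At the synapse, 11 basal-only sites lay in 7 of 54 vesicle release genes and 16 in 9 of 38 genes of synaptic organizers and scaffolds. Besides RIMS2, the first group included ERC1 with 2 sites and CPLX1, CPLX2, ERC2, SNAP25 and SYT17 with 1 each, and SYT17, a synaptotagmin gene, was the member without another site. In the second, 33.3% of the basal sites were basal-only, a difference of -0.346 points from the other coding genes (-12.2 to 13.9), and NLGN1, a neuroligin gene, held 2 basal-only sites and no other. Granin and prohormone genes held 1 basal-only site, in PTPRN2, against 18 shared sites, so that 5.26% of the sites were basal-only (0.935 to 24.6%), a difference of -28.6 points from the other coding genes (-33.3 to -9.16). Among sites of up to 300 bp, 1 of 4 was basal-only, with an interval of the difference that includes 0 (-44.1 points, -64.7 to 0.886).

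Among 79 genes of axon guidance and L1-type adhesion, 12 basal-only sites lay in 11 genes, 29.3% of the basal sites there. EFNA5, an ephrin gene, and SEMA6D, a semaphorin gene, held a basal-only site and no other. In 66 neural transcription factor genes there were 3, in ATOH1, MYT1 and PAX5. The ATOH1 site, 350 bp at chr4:94750101-94750449, lay in the coding exon of this short proneural gene of 2.21 kb, with a best match of 3 mismatches and no site of the increased list within 1290651 bases. The MYT1 site, 200 bp at chr20:62798251-62798449, held the consensus with 1 mismatch and lay 4601 bases from a shared site. With GRM7, MYT1 was the listed gene in which a basal-only site had at most 1 mismatch.

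Further lists held few basal-only sites or none. Genes of adrenal steroid production (39 genes) held 0 basal-only and 5 shared sites, genes of NRSF/REST and its corepressors (13 genes) 0 and 3, and protocadherin genes (66 genes) 0 and 1. The intervals of these basal-only shares reached up to 43.4%, 56.1% and 79.3%, against 33.7% in the other coding genes. With 10 kb on either side of the genes counted, the lists held 1.31, 0 and 0.249 times the basal-only sites per Mb of all coding genes. Zinc finger genes, taken for comparison, held 12 basal-only and 11 shared sites, so that 52.2% were basal-only (33.0 to 70.8%), 18.7 points above the other coding genes with an interval that includes 0 (-0.632 to 37.3, and -0.236 points, -24.7 to 17.1, among sites of up to 300 bp). Above 300 bp 1 of 7 was basal-only, 12.5 points more (0.738 to 49.5). In 414 olfactory receptor genes there was 1 basal-only site, 100 bp wide, in OR8K1. Of 30 coding genes that the study lists as changed by NRSF/REST knockdown at the basal dosage, 3 held a basal-only site and 22 a shared site (73.3%), where 3.99% of all coding genes held a basal-only and 6.70% a shared site; that list came from these cells and is not independent of them. The 3 genes were CPLX2, which encodes complexin, SLC7A14, of the cationic amino acid transporter family, and MARCHF11, a membrane-bound ubiquitin ligase gene, and each also held a shared site. Their basal-only sites were 250, 300 and 100 bp wide, each with a best match of 4 mismatches, and lay 13701, 301 and 106351 bases from the nearest shared site.

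Basal-only sites were called on all 24 chromosomes, and 8 of the 23 basal-list sites on chromosome Y were among them. Whether the calls on chromosome Y were mapped correctly was not tested. Of the sites on chromosome 13, 48.5% were basal-only (63 of 130, 40.0 to 57.0%), the highest share, and of those on chromosome 22, 17.8% (18 of 101, 11.6 to 26.4%), the lowest. The interval lay above the 35.5% of the whole list on 6 chromosomes, 3, 4, 5, 6, 7 and 13, and below it on 6, namely 16, 17, 19, 20, 22 and X. In sites per Mb of sequenced bases, basal-only sites ranged from 0.172 on chromosome X to 1.16 on chromosome 19, with 0.662 over the genome, and shared sites from 0.556 on X to 3.26 on chromosome 19, with 1.20 over the genome; chromosome Y was left out of these ranges.

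The chromosomes with low shares were those with many shared sites per Mb, apart from X. Chromosomes 16, 17, 19, 20 and 22 had between 1.81 and 3.26 shared sites per Mb, against 0.650 to 1.36 on the other autosomes, while their basal-only sites ran from 0.516 to 1.16 per Mb, against 0.501 to 0.899 on the other autosomes. The basal-only share was lower on chromosomes of higher GC content (Pearson r = -0.735 over 23 chromosomes), and basal-only and increased-only sites per Mb followed each other across the same chromosomes (r = 0.878). These values are descriptions over chromosomes that share both libraries. The increased-only share was also above its own overall value on chromosomes 3 and 7, and below it on 5 of the 6 chromosomes named as low, all except X.

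**Figure D3:**
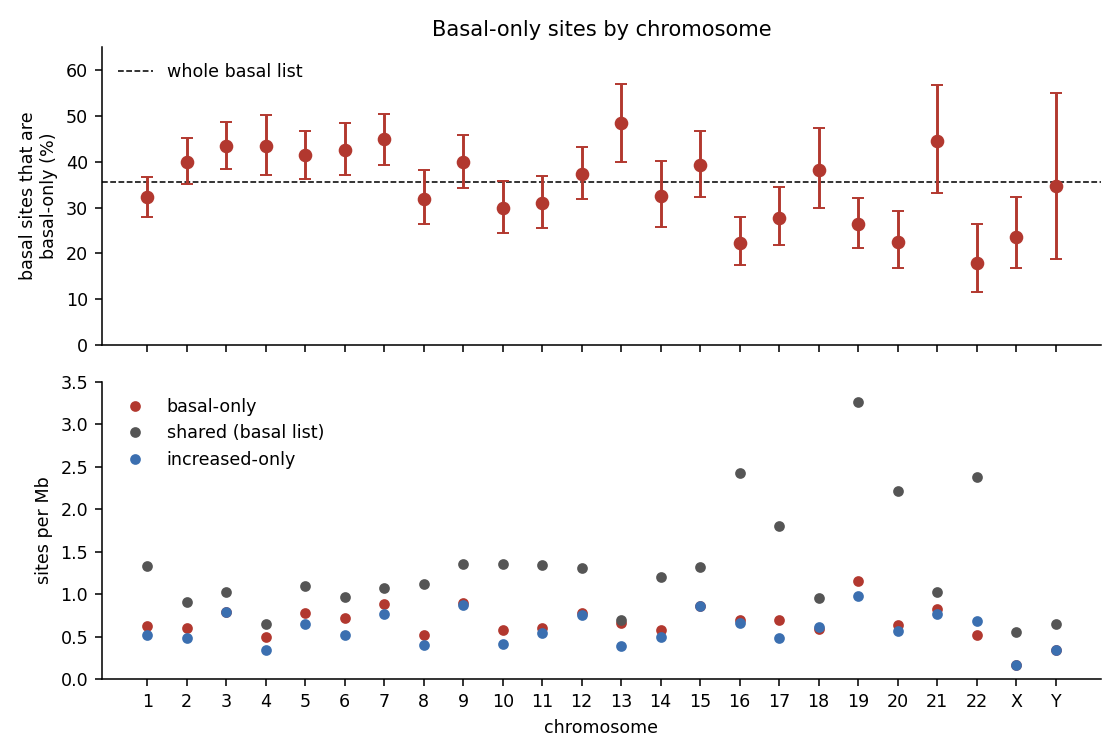
Top, percent of basal-list sites on each chromosome that are basal-only, with 95% Wilson intervals and a dashed line at the 35.5% of the whole list; bottom, basal-only, shared and increased-only sites per Mb of sequenced bases. Chromosome 13 is highest at 48.5% and chromosome 22 lowest at 17.8%. In absolute sites per Mb, with Y left out, shared sites span a larger range (0.556 to 3.26) than basal-only sites (0.172 to 1.16).

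In bins of 5 Mb, 541 of 633 bins held a basal-only site, the median bin held 3, and 29 bins held 8 or more. The fullest were the bin from 30 to 35 Mb of chromosome 16, with 14 basal-only and 11 shared sites, and those from 20 to 25 Mb of chromosome 15 and from 50 to 55 Mb of chromosome 7, with 13 basal-only and 7 shared sites each. From 60 to 65 Mb of chromosome 12, 11 basal-only and 6 increased-only sites stood without a single shared site. The bin from 40 to 45 Mb of the same chromosome, where ADAMTS20 lies, held 11 basal-only and 3 shared sites. Whether repeated sequence raised the counts of the fullest bins was not tested.

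The median distance from a basal-only site to the nearest shared site was 291 kb (quartiles 82.2 and 719 kb). Shared sites lay closer to each other, with a median of 143 kb to the next shared site. Increased-only sites lay 287 kb from the nearest increased-list site that overlaps a basal site. At like width the medians of basal-only and shared sites were 313 and 168 kb up to 200 bp, and 175 and 182 kb at 250 or 300 bp. Within 1 kb of a shared site were 119 basal-only sites (6.29%), within 10 kb 189 (9.99%), within 100 kb 529 (28.0%) and within 1 Mb 1582 (83.6%). No increased-dosage site of any kind lay within 1 kb of 1759 basal-only sites (93.0%) or within 100 kb of 1181 (62.4%). An increased-only site lay within 1 kb of 20 (1.06%). Another basal-only site lay within 1 kb of 16 (0.846%). The shares expected from an even spread were not computed, so these counts do not tell whether sites cluster. Over the genome there were 0.662 basal-only and 1.20 shared sites per Mb. The 3 farthest from any shared site lay on chromosome 4 in the region between PABPC4L and PCDH18, a protocadherin gene, the farthest 9057951 bases away.

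**Figure D4:**
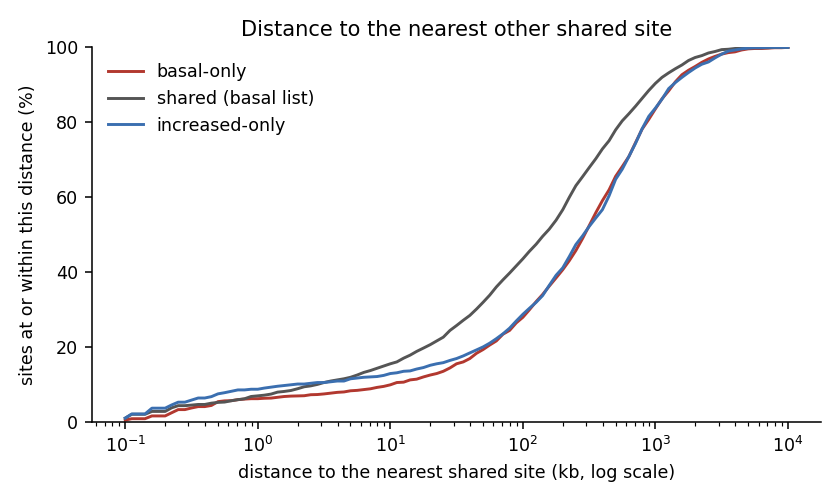
Cumulative percent of sites (y axis) at or within a given distance from the nearest other shared site (kb, log scale) for basal-only, shared and increased-only sites. For increased-only sites the shared sites are those of the increased list. The curves of basal-only and increased-only sites lie together above 100 kb, with medians of 291 and 287 kb, to the right of the shared sites at 143 kb.

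The basal-only sites next to shared sites differed in sequence from those neighbors. Among the 119 within 1 kb, 2 held the RE1 consensus (1.68%), while 82 of their shared neighbors did (68.9%), and their median width was 200 bp against 750 bp for the neighbors. CACNA1B gave an example, where the basal-only site of 500 bp had a best match of 4 mismatches and stood 251 bases from a shared site of 1850 bp with a full match, both printed above. Of the 1773 basal-only sites farther from a shared site, 141 held the consensus (7.95%).

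The RE1 consensus was present in 143 of 1892 basal-only sites (7.56%, 6.45 to 8.84%) and in 0.476% of windows of the same width 10 kb to either side (18 of 3784). In pairs of a site and its upstream window, 142 held it in the site alone and 9 in the window alone (exact two-sided McNemar test, p = 6.59e-32, adjusted p = 3.81e-31). This is 1 of 11 such tests on the basal-only sites, and adjusted values are Benjamini-Hochberg values over the 11. With no mismatch allowed the counts were 7 sites and 0 windows, which allows up to 0.101% of windows (upper Wilson bound). For comparison, 2.03% of 35116 promoters of 300 bp from RefSeq held the element at up to 2 mismatches. Most basal-only sites are narrower than these promoters, and those of 300 bp held it in 22.8%. Increased-only sites held it in 6.78%, and their difference from basal-only sites did not lie outside 0 (0.781 points, -0.948 to 2.48). Shared sites held it in 58.9%, and the basal-only share minus the shared share was -51.3 points (-53.3 to -49.3).

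Unlike the position relative to genes, the consensus separated basal-only from shared sites at every width compared. At 100 bp, 1.94% of basal-only against 17.6% of shared sites held it, a difference of -15.7 points (-28.3 to -7.51). At 150 bp the shares were 4.93% and 24.5% (-19.6 points, -28.9 to -12.0), at 200 bp 12.3% and 28.9% (-16.6 points, -23.7 to -9.73), and at 250 bp 15.1% and 34.9% (-19.8 points, -27.3 to -11.5). At 300 bp they were 22.8% and 43.2% (-20.4 points, -30.1 to -8.57), and from 350 to 550 bp 29.2% and 57.2% (-28.0 points, -39.3 to -13.8). Thus the share rose with width in both kinds of site, and the basal-only sites stayed below the shared ones in all 6 classes.

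**Figure D5:**
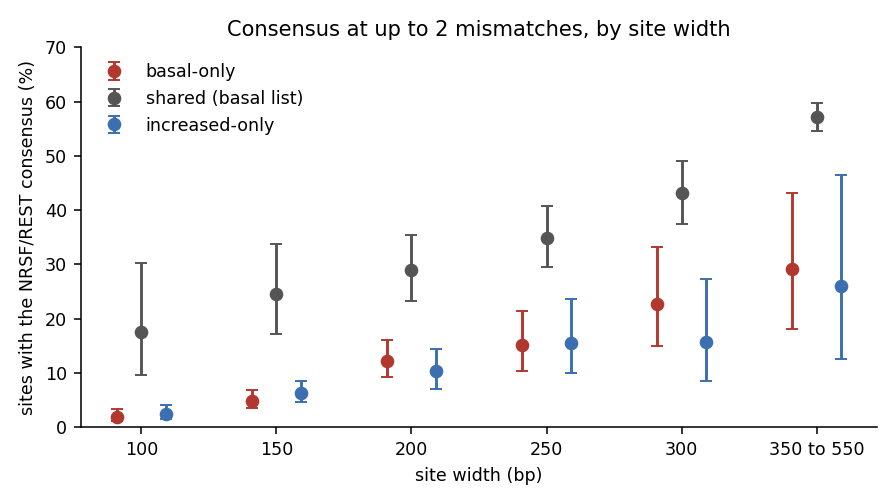
Percent of sites with the RE1 consensus at up to 2 mismatches (y axis) by site width (bp) for basal-only, shared and increased-only sites, with 95% Wilson intervals. Basal-only sites rise from 1.94% at 100 bp to 29.2% at 350 to 550 bp and lie below shared sites in every class, while their intervals overlap those of increased-only sites.

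Within most sites, the match lay nearer the middle than the edge. A match must lie wholly inside its site, so its middle cannot reach the edge, and the shares expected from random placement were not computed. The median match of a basal-only site was 26.8% of the way from the middle to the edge, against 13.9% in shared sites (26.8% and 28.1% up to 200 bp, 31.4% and 15.3% at 250 or 300 bp), and 113 of 143 (79.0%) lay in the central 50%. The basal-only sites with the consensus were wider (median 200 bp against 150 bp without it), richer in GC (48.7% against 42.3%) and earlier in the list (median number 3609 against 4355). They lay within genes in 68.5% of cases, against 60.9% of those without it, and 6 of them (4.20%) were within 1 kb of a coding gene start. These traits of sites with and without the consensus were not compared at like width, although the share with the consensus rose with width. In the 50 sites with a single mismatch, the mismatch was most often at position 12 (10 sites), 4 (9 sites), 3 or 5 (7 sites each), and at position 2, 10 or 11 in none. In 871 shared sites with a single mismatch, position 12 also came first (36.2%), and positions 2, 10 and 11 took 0.459%, 0.115% and 0.344%.

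The parts of the element can also stand at other spacings. Among the 1749 basal-only sites without the consensus, 172 (9.83%, 8.53 to 11.3%) held both parts, each with at most 1 mismatch, in the same order at another spacing of up to 20 bases, against 4.37% of windows (156 against 65 pairs, exact two-sided McNemar test, p = 8.21e-10, adjusted p = 2.26e-09). Increased-only sites without the consensus were at 7.34%, 2.50 points lower than basal-only sites (0.563 to 4.41). This difference was not taken at like width, and increased-only sites were more often 100 or 150 bp wide (72.0% against 66.0%). In basal-only sites without the consensus the share was 8.17% up to 200 bp and 18.9% at 250 or 300 bp. Shared sites without the consensus were at 43.3%, and the basal-only share minus theirs was -33.4 points (-36.3 to -30.5), -14.5 points up to 200 bp (-20.0 to -9.68) and -14.0 points at 250 or 300 bp (-21.0 to -6.26). A site can count at more than 1 spacing. Spacings of 8 bases (31 sites and 1 upstream window) and of 0 or 9 bases (22 sites and 2 windows each) were the most frequent. In swapped order the parts were found in 6.23% of these sites and 3.49% of windows (p = 0.000136, adjusted p = 0.000249, same exact test). Both parts without any mismatch occurred in 10 sites, and the 5 with 8 bases between them, picked out after their spacing was known, are printed with the parts in capitals.
Coding exon of INSRR, chr1:156811242-156811262, minus strand: CTGTCCaatgagcaGGTGCTG
Intron of the gene ENSG00000234426, chr6:89086107-89086127, minus strand: CTGTCCgttgcagaGGTGCTG
Intergenic, nearest coding gene C5orf58, chr5:169611928-169611948, minus strand: CTGTCCaggacagtGGTGCTG
Intergenic, nearest coding gene ZCCHC2, chr18:60164795-60164815, minus strand: CTGTCCtctggcagGGTGCTG
Intron of the gene ENSG00000250957, chr4:175059051-175059071, plus strand: CTGTCCatatttcaGGTGCTG
INSRR encodes a receptor tyrosine kinase related to the insulin receptor. The bases between the parts differ among all 5.

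The SF-1 consensus, searched as CAAGGTCA, CAAGGACA or CAAGGCCA on either strand without mismatch, was present in 90 basal-only sites (4.76%, 3.89 to 5.81%) and in 2.03% of their windows (84 against 35 pairs, exact two-sided McNemar test, p = 8.18e-06, adjusted p = 1.80e-05). CAAGGACA, which can be formed by bases inside the RE1 element, was the most frequent form, in 46 sites. Outside RE1 matches of up to 3 mismatches, 58 sites held an SF-1 match (3.07%) and 1.90% of windows (57 against 36 pairs, p = 0.0375, adjusted p = 0.0413, same exact test). Increased-only sites held the SF-1 consensus in 3.64%, 1.12 points less than basal-only sites, with an interval that includes 0 (-0.224 to 2.45), and shared sites, which are wider, in 15.1%. At like width the basal-only share minus the shared share was 0.0168 points up to 200 bp (-2.63 to 1.89) and 1.09 points at 250 or 300 bp (-2.99 to 5.96). The same 3 forms occurred in 4.04% of the 35116 promoters of 300 bp, which are wider than most basal-only sites. Basal-only sites of 250 or 300 bp held them in 9.66%.

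In base composition, basal-only sites had a median GC content of 42.7%, 3.02 points above their windows (median of the differences), and 60.3% of them exceeded the upstream window. Shared sites had 47.0% and increased-only sites 41.2%. Of the basal-only sites, 1413 (74.7%) held no 32-base word that occurs elsewhere in the genome, and in 89 (4.70%, 3.84 to 5.75%) over 50% of the words were repeated, against 3.93% of shared and 4.87% of increased-only sites. At like width the share was lower than in shared sites, by a difference of -6.98 points up to 200 bp (-10.9 to -3.79) and -4.26 points at 250 or 300 bp (-7.02 to -0.877). Chromosome 9 held 12 of the 89 and chromosome 1 held 11. The most repeated was a 200-bp site in an intron of HFM1, a meiotic helicase gene, whose median word occurs 3446 times.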

How the data were processed

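NRSF/REST ChIP-seq was performed in 1 library per SF-1 dosage of H295R/TR SF-1 cells. Doxycycline is given as 1 mg/mL in the labels and 1 µg/ml in the written methods. Reads were aligned by the authors to hg19 (ELAND, CASAVA 1.6), and the deposited list of each library holds start and end positions, a score that is 1000 in every row, and a second score that was taken as an order number from its values. CisGenome was stated as the caller for SF-1 sites; the caller and its settings for NRSF/REST sites are not given in the sources used here. The depth per sample is unknown. Input libraries, the SF-1 sites and the reads were not used here.

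Starts were counted from 1. Overlaps needed 1 bp. Genes (64449, of which 20163 protein-coding) were from GENCODE release 44 mapped to hg19, and a site was placed by its midpoint. Sequences were read from GRCh37, the promoters from RefSeq (GRCh38.p14). Each site was set against flanking windows of its own width at a distance of 10 kb, with the exact two-sided McNemar test (threshold 0.05) for the upstream window. Shares have Wilson and differences Newcombe intervals (95%). Sites are not replicates. Words of 32 bases were counted on both strands of the genome. Python 3.11.15, numpy 2.4.6, scipy 1.17.1, pandas 2.3.3, pysam 0.24.0, numba 0.67.0 and matplotlib 3.10.9 were used. In simulated data, 2000 of 2000 sites were assigned correctly by overlap, 700 of 700 distances were right, and 200 of 200 planted RE1 matches were recovered.

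The basal-only sites and the 16 gene lists, matched by symbol, were chosen with earlier results of these data known. Sites and genes were named by rule: the 10 widest basal-only sites, full consensus matches and single mismatches in listed genes, up to 10 genes with the most basal-only sites, up to 4 genes per list without another site, the 3 sites nearest on either side of the overlap rule, the 3 farthest from a shared site, and those in genes changed by knockdown. Other genes of the lists, the other printed sequences and the bins were named after their values were seen. Alternatives were other overlap rules, annotations, mismatches, windows, distances and composition measures; comparisons at like width other than that of the RE1 consensus, downstream windows for SF-1 and the removal of repeated sites were added after seeing the data. A few named items are not reported here.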

Additional observations from a re-analysis of the deposited data

How the results depend on the processing

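The number of basal-only sites stayed between 1759 and 2052 under the other overlap rules, merging, the removal of chromosome Y and the removal of repeated sites, but was 32 in the first 50% of the list and 52 in the widest 50%. Counting protein-coding genes only put 45.4% of the sites in genes. The median distance was 152 kb to any other basal-list site, and 324 kb when sites within 1 kb of an increased-dosage site counted as shared. As a share of genes holding a site, the neuronal lists stood at 2.64 times all coding genes, and 6 single lists also moved under this measure. The excess of the RE1 consensus over windows kept its direction and passed the test under all 8 alternatives (0.370 to 18.5 points), and that of the SF-1 consensus did so except for CAAGGCCA alone (0.581 points, p = 0.0522, exact McNemar test). With no mismatch allowed, the differences from shared sites were 0.162 points at 100 bp, -1.64 at 150 bp and -3.30 at 300 bp, with intervals including 0. At like width, differences in position from shared sites were, up to 200 bp, -0.775 points far from coding genes, -0.776 in exons and 8.12 in genes, and, at 250 or 300 bp, -1.27 far from coding genes, 0.861 in exons and 0.0525 near gene starts. The neuronal difference was -4.02, -9.65 and 0.589 points in its 3 width classes. Differences from shared sites in the share of coding genes among sites in genes were 1.19 and 2.97 points (up to 200 bp, then 250 or 300 bp), for the SF-1 consensus 0.0168 and 1.09, and for repeated words -6.98 and -4.26, and the median distance was 175 kb at 250 or 300 bp. Zinc finger genes differed by -0.236 points up to 300 bp. The cause of these changes was not tested, and each class holds fewer sites than the whole list. No paired analysis was possible because there is 1 library per dosage, and leaving out a library is not possible for the same reason. Depth is unknown, so a site missing from the increased list is a missing call.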

Other observations

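The CpG dinucleotide was found 15.5 times per kb in basal-only sites, 24.1 times in shared sites and 13.6 times in increased-only sites. At like width the median GC content of basal-only and shared sites was 42.4% and 42.4% at 100 bp, 41.6% and 46.0% at 150 bp, 43.7% and 48.2% at 200 bp, 45.0% and 46.6% at 250 bp, and 46.8% and 44.5% at 300 bp. These values were not tested.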
